A study of Rattus norvegicus and Heterocephalus glaber with 6 samples.

Results

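The genes described here are the autophagy and mitophagy machinery of the liver, 40 gene symbols listed by role and matched without regard to case to the deposited expression tables. Of the 40 symbols, 34 were found in the rat tables, each on 1 row, among 22517 symbols. Ambra1, Atg2b, Atg4a, Atg4d, Atg13 and Atg14 matched no row and were not analysed here. In the naked mole rat tables, which held 567 symbols, 1 of the 40 was found, ATG3. The account that follows is therefore mainly one of the rat liver, and each species comparison rests on few genes.

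The samples were livers of rats (Rattus norvegicus) and of naked mole rats (Heterocephalus glaber, a burrowing rodent that tolerates low oxygen), all taken after 8 hours in 8% oxygen, with 3 libraries of polyadenylated RNA per species. The labels give no strain, age, genotype or drug treatment. Libraries kept at normal oxygen, which the series design mentions, were not analysed here, so no effect of oxygen was measured. The labels do not say that replicates came from separate animals, so the spread between libraries may in part be technical. Values are FPKM, in which fragments are counted per unit of transcript length and relative to all mapped fragments, which allows levels of different genes to be compared per length. The files give no counts and the absolute depth is unknown. The sum over a rat library ran from 527133 to 557188 FPKM, and 9866 to 10036 rows reached 1 FPKM. From the steps between the lowest values, rat 1 was sequenced 1.05 times as deeply as rat 2 and 0.984 times as deeply as rat 3. The 4 hepatocyte markers with 3 values (Ttr, Tf, Cps1, Cyp2e1) ranged from 979.7 FPKM (Cps1 in rat 3) to 14027 (Tf in rat 2), and 0 of 5 T or NK cell markers reached 1 FPKM. Of 47 cell type markers, 1 was listed for naked mole rat, so the tissue label could not be checked there.

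Autophagy encloses cytoplasm in a growing membrane sac, the autophagosome, and delivers it to the lysosome for breakdown. A kinase complex starts the process, a lipid kinase complex marks the membrane, and conjugation enzymes attach ATG8 proteins such as LC3 to it. Receptors then tie cargo to the ATG8 proteins. Mitophagy is the same route used for mitochondria. In the liver, autophagy supplies amino acids and lipids in fasting and limits damaged organelles.

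Nearly all of the listed genes found in the rat tables were expressed in hypoxic rat liver. Of the 34 genes, 33 had a mean of at least 1 FPKM, 16 of at least 10 and 6 of at least 100. Over all symbols of the rat tables these limits were reached by 44.4%, 17.4% and 2.94%. The median of the 34 means was 9.03 FPKM, against 6.74 over the 9984 symbols at 1 FPKM or more with no value at 0. The 6 highest were Map1lc3b, Sqstm1, Gabarap, Lamp1, Lamp2 and Gabarapl1, which encode ATG8 proteins, a cargo receptor and lysosomal membrane proteins. The genes of the initiation and lipid kinase complexes lay lower, between 1.99 FPKM for Uvrag and 25.2 for Becn1. When the 34 genes were put in order of their means, 13 of 33 neighbouring pairs had ranges over the 3 rats that did not overlap, and the other 20 could not be ordered beyond their spread. In bulk tissue, fewer cells of a type and less RNA per cell cannot be told apart. All 34 rows carried the status OK, and 0 of 34 overlapped another row.

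**Figure D1:**
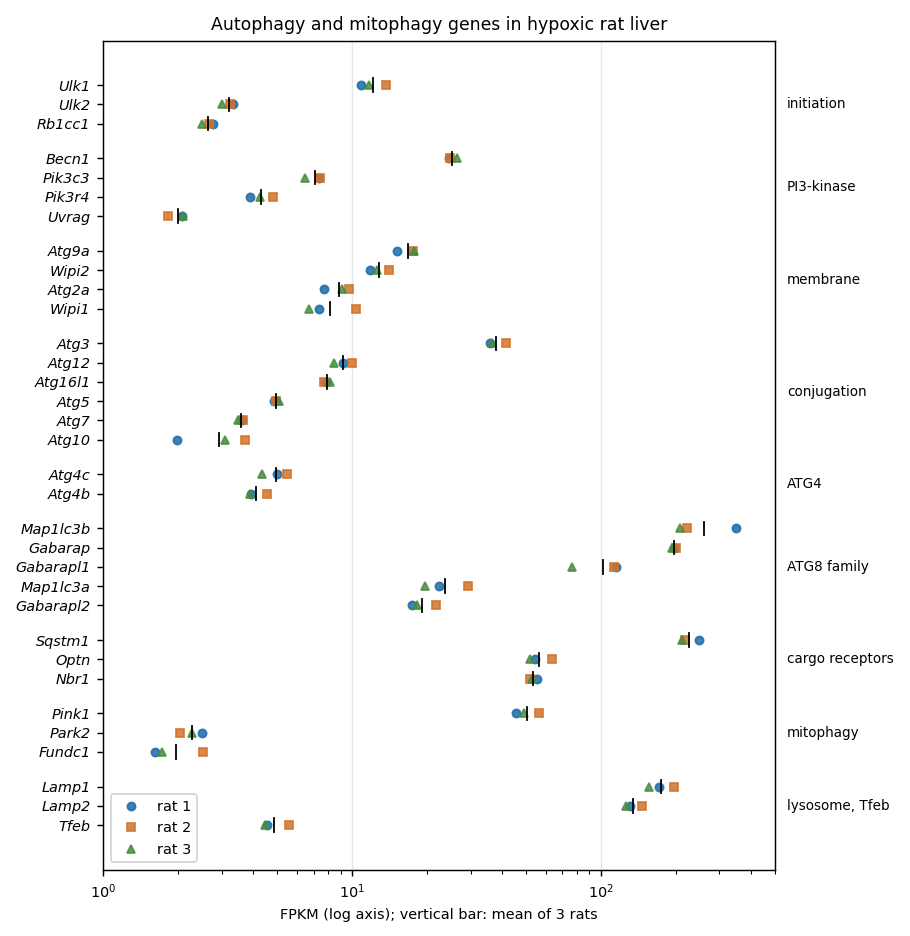
FPKM (log axis) of the 33 autophagy and mitophagy genes at 1 FPKM or more, grouped by role, with 1 point per rat library and a vertical bar at the mean of 3 rats. ATG8, cargo receptor and Lamp genes lie to the right of the initiation complex and ATG4 genes, and of the PI3-kinase genes other than Becn1. The mean of Becn1 (25.2 FPKM) is above those of the ATG8 genes Map1lc3a (23.7) and Gabarapl2 (19.1). Atg9b, below 0.1 FPKM, is not drawn.

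Of the initiation complex, Ulk1, the kinase that starts autophagy when nutrients or energy are short, stood at 10.9, 13.7 and 11.7 FPKM in rat 1, rat 2 and rat 3, a mean of 12.1 ± 1.44 (SD, n = 3). Its paralogue Ulk2 was at 3.32, 3.23 and 3.01 FPKM. Rb1cc1, the scaffold also called FIP200, was at 2.77, 2.65 and 2.49. Ulk1 was thus the more abundant kinase in every rat, by 3.29 to 4.24 times, and its range did not overlap that of either partner. The ranges of Ulk2 and Rb1cc1 did not overlap either, though their means differed by less than 1 FPKM.

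The class III PI3-kinase complex makes the lipid phosphatidylinositol 3-phosphate on the forming membrane. Becn1 (Beclin 1), its regulatory subunit, was at 24.5, 24.9 and 26.3 FPKM, a mean of 25.2 ± 0.964 (SD, n = 3). The catalytic subunit Pik3c3 (VPS34) was at 7.40, 7.42 and 6.48 FPKM. Pik3r4 (VPS15), which anchors it, was at 3.88, 4.80 and 4.26. Uvrag, the subunit of the complex that acts at late steps and on endosomes, was lowest at 2.06, 1.81 and 2.09. These 4 subunits kept the same order in each rat with no overlap between neighbours, and Becn1 exceeded Pik3c3 by 3.31 to 4.06 times and Uvrag by 11.9 to 13.7 times. The 4 subunits summed to 37.8, 38.9 and 39.2 FPKM, a sum made up mostly of Becn1. Pik3r4 alone had a highest value 1.24 times the lowest. The sum leaves out Ambra1 and Atg14, which matched no row.

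Among the genes that supply and shape the membrane, Atg9a, a scramblase carried on vesicles that seed the autophagosome, was at 15.2, 17.6 and 17.7 FPKM. Its paralogue Atg9b was at 0.0192 FPKM in rat 1 and listed at 0 in rat 2 and rat 3. Atg9b was thus the only one of the 34 genes below 1 FPKM. Atg2a, which moves lipids into the growing membrane, was at 7.74, 9.71 and 9.08. Wipi2, which reads the lipid mark and recruits the conjugation machinery, was at 11.8, 14.1 and 12.6 FPKM. The related Wipi1 was at 7.35, 10.4 and 6.73. Within each rat Wipi2 exceeded Wipi1, by 1.35 to 1.87 times, and the ranges of the paralogues did not overlap.

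The conjugation enzymes were uneven in level. Atg3, the E2-like enzyme that attaches ATG8 proteins to lipid, was at 36.0, 41.5 and 36.4 FPKM, a mean of 38.0 ± 3.10 (SD, n = 3). Atg7, the E1-like enzyme that acts just before it, was at 3.62, 3.65 and 3.49 FPKM. Atg10, the E2-like enzyme of the ATG12 branch, was at 1.97, 3.73 and 3.08. Atg3 was therefore 9.92 to 11.4 times as abundant as Atg7 and 11.1 to 18.2 times as abundant as Atg10 within a rat. Of the complex that directs the lipid attachment, Atg12 was at 9.18, 9.996 and 8.46 FPKM, Atg16l1 at 7.88, 7.70 and 8.13, and Atg5 at 4.85, 4.95 and 5.09. Atg7, Atg5 and Atg16l1 had a highest value at most 1.06 times the lowest, whereas Atg10 had the widest spread of all members, 1.89 times, being low in rat 1. Of the ATG4 proteases, which trim ATG8 proteins and free them from the membrane, Atg4c was at 4.98, 5.48 and 4.36 FPKM and Atg4b at 3.93, 4.56 and 3.90. Atg4c exceeded Atg4b in each rat by 1.12 to 1.27 times, but their ranges overlapped.

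The 5 ATG8 genes, whose products coat the autophagosome and hold its cargo, summed to 703, 587 and 516 FPKM. Map1lc3b (LC3B) was at 351, 222 and 208 FPKM, a mean of 260.3 ± 79.0 (SD, n = 3), with rat 1 well above both others. Gabarap was at 197, 200.2 and 194, the steadiest of all members, with a highest value 1.03 times the lowest. Gabarapl1 was at 115, 113 and 76.6, lower in rat 3. Map1lc3a (LC3A) was at 22.3, 29.4 and 19.6 FPKM and Gabarapl2 (GATE-16) at 17.5, 21.7 and 18.2. Map1lc3b made up 49.96%, 37.8% and 40.3% of the ATG8 sum in rat 1, rat 2 and rat 3, and Gabarap 28.0%, 34.1% and 37.5%. Map1lc3b was 7.55 to 15.8 times as abundant as Map1lc3a within a rat, and both Gabarap and Gabarapl1 exceeded Gabarapl2 in every rat. ATG8 genes resemble each other, and how fragments shared by similar sequences were assigned is not given in the sources used here.

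The cargo receptors link ubiquitin-tagged material to ATG8 proteins. Sqstm1 (p62), which gathers protein aggregates and is itself degraded by autophagy, was at 247, 219 and 213 FPKM, a mean of 227 ± 18.4 (SD, n = 3). Optn (optineurin), a receptor for damaged mitochondria and bacteria, was at 54.2, 63.8 and 51.8. Nbr1, a receptor that works beside p62, was at 55.2, 52.1 and 53.1 FPKM. Sqstm1 was the most abundant in each rat, at 4.02 to 4.48 times Nbr1, while Optn and Nbr1 overlapped. The ratio of Sqstm1 to Map1lc3b was 0.705 in rat 1, 0.987 in rat 2 and 1.03 in rat 3.

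Of the genes specific to mitophagy, Pink1, the kinase that accumulates on damaged mitochondria, was at 45.6, 56.4 and 49.1 FPKM, a mean of 50.4 ± 5.49 (SD, n = 3). Park2 (parkin), the ubiquitin ligase that PINK1 activates, was at 2.50, 2.03 and 2.27 FPKM. Fundc1, an outer membrane receptor linked to mitophagy in low oxygen, was at 1.62, 2.52 and 1.73. Pink1 transcripts thus stood at 18.3 to 27.7 times those of Park2 within a rat, and the ranges of Park2, Uvrag and Fundc1, the 3 lowest genes above 1 FPKM, overlapped one another.

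At the lysosomal end, Lamp1, an abundant membrane glycoprotein of lysosomes, was at 172, 196 and 157 FPKM, a mean of 175 ± 19.9 (SD, n = 3). Lamp2, whose variants serve fusion with autophagosomes and chaperone-mediated autophagy, was at 131, 147 and 126. Tfeb, the transcription factor that turns on lysosomal and autophagy genes, was at 4.56, 5.55 and 4.48 FPKM. Lamp1 exceeded Lamp2 by 1.24 to 1.34 times in each rat, and their ranges did not overlap. Lamp1, Lamp2 and Tfeb were each highest in rat 2 and lowest in rat 3, which was common. Of the 33 members at 1 FPKM or more, 21 were highest in rat 2, as were 49.0% of all symbols at that level. In rat 3, 17 of the 33 were lowest, as were 28.9% of those symbols.

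TFEB binds an E-box, and its preferred site is known as the CLEAR element, which holds CACGTG at its core. RefSeq promoter windows of the GRCr8 build were found for 34 of the 40 listed genes, and the 250 bases before each gene start were searched for CACGTG, which reads the same on both strands. It was present in 4 of the 34, Atg3, Atg5, Lamp1 and Pink1, each found in the rat tables, and in 5.59% of all 33469 windows. The longer TCACGTGA, which contains CACGTG, was present in Atg3 and Lamp1 and in 0.657% of all windows. The Lamp1 window held 5 copies of CACGTG and was the only 1 of the 33469 windows with at least 5. Atg3 and Pink1 held 2 each, and 0.430% of all windows held at least 2. The means of the 4 genes were 175 FPKM for Lamp1, 50.4 for Pink1, 38.0 for Atg3 and 4.96 for Atg5. Members without the core in their window also stood high, such as Map1lc3b at 260.3 and Sqstm1 at 227. A link between the core and the level was not tested. The stretches that hold the sites are shown because they compare the spacing and flanks of this core among the members, with the core in capitals and each printed 5′ to 3′ on the strand of the gene.
Lamp1, chr16:83075081-83075261, minus strand: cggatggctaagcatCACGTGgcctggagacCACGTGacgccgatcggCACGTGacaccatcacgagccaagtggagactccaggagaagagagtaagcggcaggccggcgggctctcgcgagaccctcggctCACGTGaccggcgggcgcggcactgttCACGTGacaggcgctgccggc
Pink1, chr5:155826028-155826126, minus strand: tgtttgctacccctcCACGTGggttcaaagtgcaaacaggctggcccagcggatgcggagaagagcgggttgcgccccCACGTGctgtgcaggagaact
Atg3, chr11:69159281-69159334, minus strand: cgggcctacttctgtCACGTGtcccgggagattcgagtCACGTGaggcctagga
Atg5, chr20:49380801-49380834, plus strand: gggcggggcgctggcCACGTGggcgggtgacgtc
In Lamp1 the copies began 183, 167, 150, 65 and 38 bases before the gene start, and in Atg3 39 and 16 bases before it. In Pink1 they began 161 and 98 bases before the start, and in Atg5 19 bases. A match of letters is a description of these windows, and binding was not measured.

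Within a library, ratios between members describe the balance of the machinery free of differences in depth. Of 22 pairs compared, 20 kept their side of 1 in all 3 rats. The pairs were picked by hand, and genes far apart in level keep their side in any case. No share over other gene pairs was taken, so the count is not read as a trait of these genes. The exceptions were Sqstm1 over Map1lc3b, which was below 1 in rat 1 and rat 2 and above it in rat 3, and Optn over Nbr1, at 0.983, 1.22 and 0.976. On the log2 scale the ratio of Lamp1 to Lamp2 had the smallest SD of the 22, 0.056 (n = 3), and that of Map1lc3b to Map1lc3a the largest, 0.53.

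**Figure D2:**
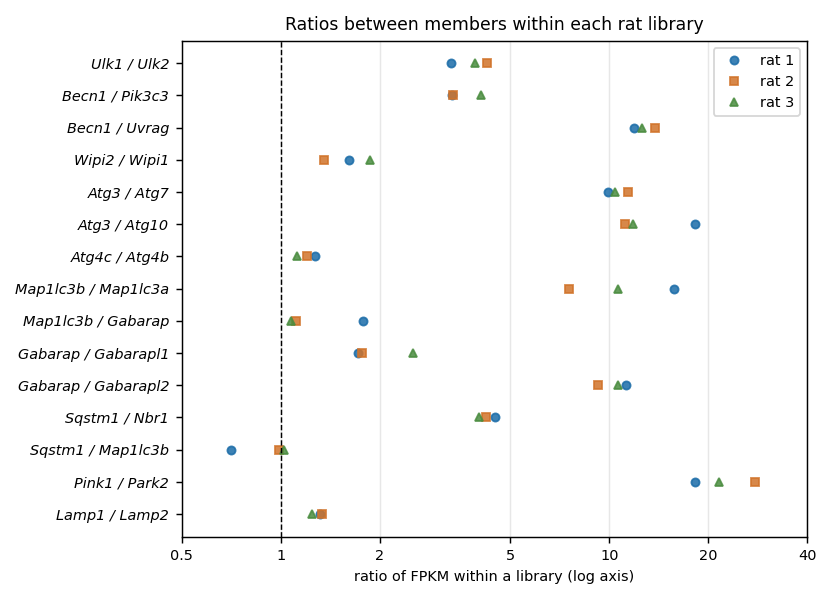
Ratios of FPKM between members within each rat library (log axis), with 1 point per rat and a dashed line at equal levels. Becn1 over Uvrag, Atg3 over Atg7, Map1lc3b over Map1lc3a and Pink1 over Park2 lie between 7.55 and 27.7, whereas Lamp1 over Lamp2 and Atg4c over Atg4b lie between 1.12 and 1.34.

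Most members differed by less than 1.5 times between the rats, as did most symbols. The median ratio of the highest to the lowest rat was 1.19 over the 33 genes at 1 FPKM or more, against 1.25 over the 9984 symbols at that level. In 6 of 33 genes (18.2%) the highest rat was at least 1.5 times the lowest, against 18.8% of all those symbols, so the share of variable genes was near the background. In 0 of 33 it reached 2 times, against 5.95%. The 6 were Atg10 (1.89 times), Map1lc3b (1.69), Fundc1 (1.55), Wipi1 (1.55), Map1lc3a (1.501) and Gabarapl1 (1.5003). The last pair lie at the limit itself, and the nearest gene under it was Ulk1 at 1.26. With the rats scaled by their median ratio, 3 of 33 genes (9.09%, against 17.7% of all symbols) passed the limit, Map1lc3b, Atg10 and Gabarapl1. Without rat 1 the number was 2, and without rat 2 or rat 3 it was 3 each, since fewer libraries leave a narrower range.

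**Figure D3:**
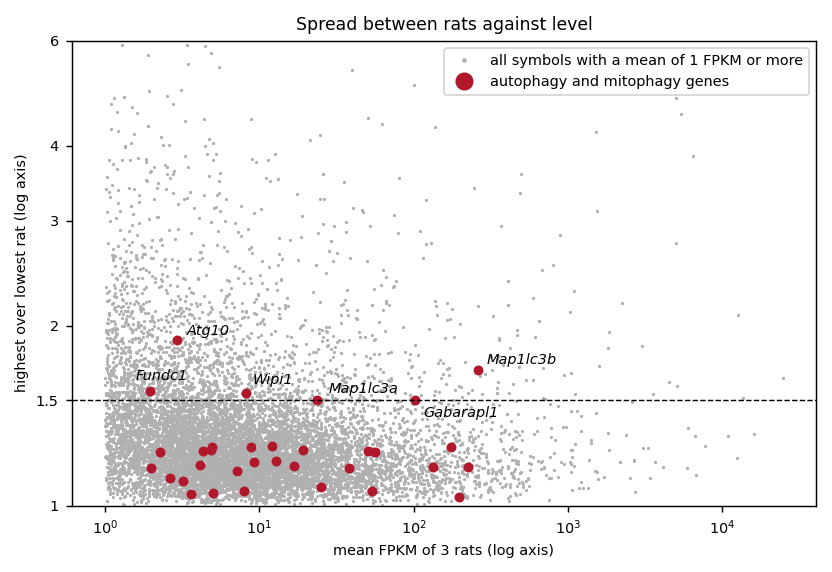
Ratio of the highest to the lowest rat against mean FPKM (both log axes) for the 33 members at 1 FPKM or more (red) and all 9984 symbols at that level (grey), with a dashed line at 1.5. The median ratio is 1.19 for the members and 1.25 for all symbols, and the 6 members at or above the line are named. The 48 symbols with a ratio above 6 are outside the plot.

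The rats did not share the low and high values evenly. Of the 33 genes, 21 were highest in rat 2, as were 49.0% of all symbols, and 17 were lowest in rat 3, as were 28.9% of all symbols. On scaled values 18 of 33 were highest in rat 2 (36.4% of all symbols) and 18 lowest in rat 3 (34.8%). These counts describe 3 libraries of 1 group and have no test. The members summed to 1586, 1523 and 1350 FPKM, or 0.299%, 0.289% and 0.242% of a library's total, and the total of rat 1 and rat 2 lacks albumin, which carries no usable value there. Summed hepatocyte markers (4 genes) stood at 25577, 31374 and 26963 FPKM, highest in rat 2, though Cyp2e1 alone was highest in rat 3. Summed markers of macrophages or Kupffer cells (5 of 6 above 0, Marco at 0) stood at 186, 196 and 248 FPKM, highest in rat 3. Summed neutrophil markers stood at 2.39, 8.00 and 10.7, with Elane at 0, lowest in rat 1. The hepatocyte, macrophage, cholangiocyte, B cell and erythroid sums were lowest in rat 1 as well. Summed stellate cell or fibroblast markers (12.9, 11.1 and 15.8) and cholangiocyte markers (11.7, 12.9 and 16.7) were highest in rat 3, as were those of T or NK cells and of B cells. Not each marker followed its sum. Col1a1, Pdgfrb and Reln of the stellate list were highest in rat 1, and Cd3e, Cd3d and Cd79b of the lymphoid lists in rat 2. Summed sinusoidal endothelial markers (62.4, 56.7 and 55.8) were lowest in rat 3, though Stab2, Clec4g and Cdh5 were lowest in rat 2. The part of these cells in the spread of the members was not tested.

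Related genes were drawn from 4 lists, whose counts of genes differing at least 1.5 times between rats are to be read against the 18.8% of all symbols. Of 26 upstream regulators by nutrient and energy, 21 were in the rat tables, 19 at 1 FPKM or more and 8 at 10 or more. The AMP-activated kinase subunits Prkab1 and Prkag1 and the mTOR complex component Akt1s1 led, at means of 31.5, 19.1 and 24.5 FPKM. In 1 of 19 (5.26%) the rats differed by at least 1.5 times, Ddit4, an inhibitor of mTOR complex signalling, at 5.04, 2.47 and 5.21 FPKM. The next widest was Foxo1, a transcription factor of fasting, at 17.6, 17.3 and 12.3.

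Of 27 further genes of autophagosome formation and fusion, 23 were in the rat tables and 22 at 1 FPKM or more. Vamp8, a fusion protein of the autophagosome and lysosome, was at 112, 141 and 145 FPKM and Rab7a, the GTPase of late endosomes, at 94.4, 107 and 96.4. Nrbf2, a subunit of the PI3-kinase complex, was at 31.9, 27.2 and 28.2, above each listed member of that complex found in the rat tables. In 1 of 22 (4.55%) the rats differed by at least 1.5 times, Tmem41b, a lipid scramblase of the endoplasmic reticulum, at 7.36, 9.27 and 11.4. Vps33a, of the tethering complex, was next at 8.28, 9.97 and 10.99.

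Of 25 other mitophagy and organelle receptor genes, 24 were in the rat tables, 23 at 1 FPKM or more and 17 at 10 or more, with a median of 27.4 FPKM. Phb2, an inner membrane mitophagy receptor, led at 175, 162 and 178 FPKM, followed by the receptor Fkbp8 at 162, 181 and 139 and Tomm7, which holds PINK1 at the outer membrane, at 103, 93.5 and 106. Here 4 of 23 (17.4%) differed by at least 1.5 times between rats, near the 18.8% of all symbols. All 4 were lowest in rat 3. Of all symbols, whatever their spread, 28.9% were lowest in rat 3, and the share among symbols differing by at least 1.5 times was not taken. Bnip3, a receptor induced in low oxygen, was at 64.6, 68.8 and 23.4 FPKM, the widest of the list at 2.93 times. Fam134b, a receptor for the endoplasmic reticulum, was at 37.2, 29.0 and 18.7. The other two, named after their values were seen, were Bcl2l13 at 3.52, 3.30 and 1.95 and Bnip3l (NIX), a relative of Bnip3, at 28.3, 28.8 and 19.1. Bnip3 and Bnip3l thus stood above Fundc1, the listed receptor of low-oxygen mitophagy, in each rat.

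Of 37 lysosomal genes, 34 were in the rat tables, 33 at 1 FPKM or more and 28 at 10 or more, with a median of 25.9 FPKM. The protease Ctsl1 (cathepsin L) led at 512, 385 and 467 FPKM, then the proton pump subunit Atp6v0c at 310, 329 and 306 and the protease Ctsb at 276, 297 and 329. In 3 of 33 (9.09%) the rats differed by at least 1.5 times. Cd63, a membrane protein of late endosomes, was at 48.1, 103 and 47.4 FPKM and the protease Ctsh at 124, 254 and 140, both high in rat 2. The other was Scarb2, a lysosomal membrane protein named after its values were seen, at 16.8, 13.9 and 20.9, low in rat 2. Gaa, acid glucosidase, was listed at 0 in each rat, on a row outside the assembled chromosomes.

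**Figure D4:**
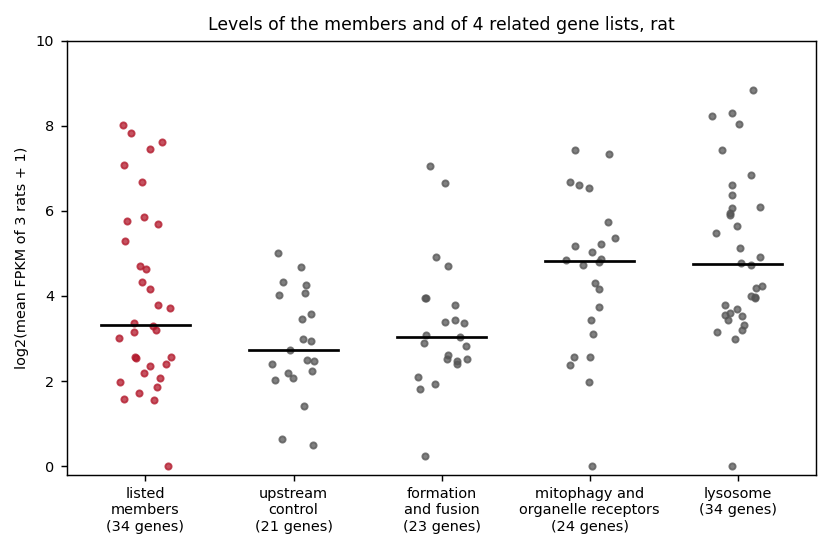
log2(mean FPKM + 1) over 3 rats for the 34 members (red) and for 4 lists of related genes (grey), with 1 point per gene and a bar at the median. The mitophagy and organelle receptor list and the lysosomal list have medians of 27.4 and 25.9 FPKM, above the 9.03 of the members.

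The last comparison was between the species after the same exposure. Over 289 symbols tested with limma, 118 (40.8%) were called higher in rat and 94 (32.5%) higher in naked mole rat, and the libraries of the species did not overlap for 89.3%. With each library scaled to equal totals 297 symbols passed the filter, and the calls were 94 and 127. ATG3, the one member in both species, was at a scaled FPKM of 36.3, 35.8 and 34.2 in the rats and listed at 0 in the 3 naked mole rats. It was called higher in rat (limma, Benjamini-Hochberg adjusted p = 2.91e-09), but it passed the filter on low values through the rat libraries alone, so it had to differ and the call adds nothing to the listed values. No fold is given against a species listed at 0. The rat row spans 28364 bp on chromosome 11, from 57162204 to 57190568, and the naked mole rat row 321 bp, on scaffold 150751 from 56391 to 56712. Of 55 tested symbols whose naked mole rat row spans less than 0.5 times the rat row, 72.7% were called higher in rat. Of these 55, 24 were listed at 0 in all 3 naked mole rats, as were 32 among all tested symbols. The ATG3 call cannot be told apart from this difference in row extent. Why the row is listed at 0 was not tested, and the value is not read as absence of the transcript.

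Of the related lists, 9 genes were in the naked mole rat tables. Of these, 0 of 9 were classed as of comparable span (1 row per species, at 0.5 to 2 times the rat row). RAB7A stood at a scaled FPKM of 92.5 ± 2.55 in rat and 64.1 ± 9.79 in naked mole rat (SD, n = 3 each). The libraries of the species did not overlap (limma, adjusted p = 0.00954). RAB7A was called in neither direction because its log2 difference (naked mole rat minus rat) of -0.53 was under the limit of 1 in size. Its sign turned with equal totals or quantile normalization. SNAP29, a fusion protein that acts with syntaxin 17, reached 28.5 ± 2.53 in naked mole rat and 8.78 ± 0.308 in rat (SD, n = 3) and was called higher in naked mole rat under each scaling (limma, adjusted p = 2.68e-06), on a row of 1003573 bp against 30702 in rat. The mitochondrial import receptor TOMM20 and FAM134B were listed at 0 in the 3 naked mole rats, TOMM20 on a row of 1672 bp against 12317. FAM134B had rows of 133643 and 612 bp against 95566 in rat, so its longer row was of comparable span. In rat TOMM20 and FAM134B stood at a scaled FPKM of 32.8 ± 4.37 and 26.7 ± 10.1 (SD, n = 3). GAA was listed at 0 in the 3 rats and stood at 4.48 ± 0.591 in naked mole rat. These 3 genes passed the filter through 1 species alone, so their calls, toward that species, are not read further. CTSH stood at 159 ± 52.6 in rat and 27.3 ± 4.71 in naked mole rat (SD, n = 3) and was called higher in rat (limma, adjusted p = 3.64e-05). ATP6V0B and FUNDC2 were called in neither direction, with overlapping libraries. GLA, a lysosomal galactosidase, was also called in neither, though its libraries did not overlap between the species (limma, adjusted p = 0.000249). Its log2 difference (naked mole rat minus rat) of -0.84 fell short of the limit of 1, which it passed with a pseudocount of 0.1. No count of calls by list is read from these 9 genes, against 40.8% and 32.5% of all tested symbols called higher in rat and in naked mole rat.

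**Figure D5:**
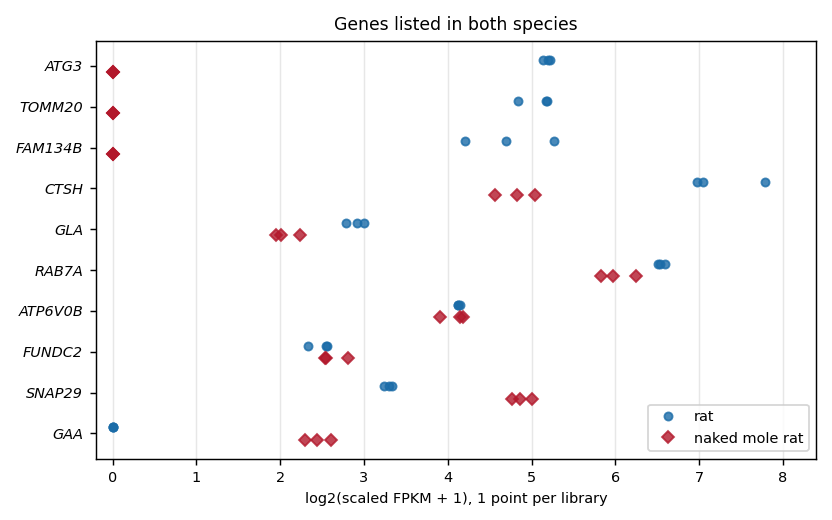
log2(scaled FPKM + 1) of ATG3 and of the 9 related genes listed in both species, with 1 point per library, rat in blue circles and naked mole rat in red diamonds. ATG3, TOMM20 and FAM134B lie at 0 in naked mole rat and GAA at 0 in rat; SNAP29 is the other gene whose naked mole rat points all lie to the right of the rat points.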

How the data were processed

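The deposited values are FPKM, per the file headers, whose columns are those of a Cufflinks gene table. Tools named in the submitters' processing notes are Cufflinks 2.1.1, Picard 1.137, TopHat2 2.0.9 and Bowtie2 2.1.0. The sources used here do not give the genome builds or annotations, so row coordinates are printed as deposited. Rows were joined between libraries by symbol and position, rows of a symbol were summed, and values with the status HIDATA (rat albumin in 2 libraries) were treated as missing. Rat levels are FPKM as deposited, with no test, since the 3 rats form 1 group. Between species, 388 shared symbols were scaled by their median ratio (factors of 0.885 to 1.16). The symbols tested reached a scaled FPKM of 1 in 3 or more of the 6 libraries. limma 3.58.1 (R 4.3.3) was run with an intensity trend on the log2 of the scaled FPKM after adding 1. A call needed a log2 difference of 1 or more and an adjusted p below 0.05. The limma step was tested on simulated data. The alternatives were 3 other scalings, a pseudocount of 0.1, no filter on low values, no trend, rows of comparable span alone, a replicate block and leaving out each library with the same symbols tested. Every listed gene may be named; from each related list the 3 highest means, up to 2 widest spreads between rats and any gene in the naked mole rat tables are named. The listed genes, the related lists and the tests were chosen with earlier results of these data known. Same-numbered libraries of the 2 species did not deviate together (correlations of -0.037, -0.086 and -0.044 across symbols), so the numbers were not taken to pair the libraries.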

Additional observations from a re-analysis of the deposited data

How the results depend on the processing

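ATG3 is listed at 0 in each naked mole rat library, so no alternative run could turn its direction, and its call under them (limma adjusted p-values from 3.07e-09 to 5.37e-07) is no sign of stability. With comparable spans alone no listed gene was left to test; there 11 symbols were called higher in rat and 16 in naked mole rat out of 47 tested, and the median log2 difference (naked mole rat minus rat) turned from -0.38 to 0.36. Equal totals, quantile normalization and FPKM as deposited had 297, 289 and 289 symbols tested. They gave 94, 101 and 128 calls higher in rat and 127, 111 and 91 higher in naked mole rat. They moved the median log2 difference to 0.56, 0.16 and -0.62. With no filter, over 367 symbols, that median was -0.033. The cause of these moves was not tested. The replicate block gave 118 and 94 calls, as without it. The number of listed genes varying at least 1.5 times between rats, 6, became 3 with scaled rats, 0 at a limit of 2, and 2 to 3 without each rat in turn. Counts of listed genes at 1 and 10 FPKM stayed within 1.5 times under each alternative. With no counts in the tables, precision at low levels (Atg9b, Fundc1, Uvrag, Park2) cannot be stated, and 3 libraries per species limit every comparison.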

Other observations

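For 7 of the 34 genes the deposited FPKM lay outside the confidence bounds of its own row in all 3 rats, in each case above the upper bound: Map1lc3b, Gabarap, Lamp1, Lamp2, Gabarapl1, Pink1 and Map1lc3a. In rat 1, Map1lc3b was given as 351 FPKM with bounds of 312 and 328, and Gabarap as 197 with bounds of 151 and 168. Atg3 lay outside its bounds in rat 2 alone, at 41.5 against 34.6 to 40.9. Among values of at least 10 FPKM, 7 of 16, 8 of 17 and 7 of 16 listed genes lay outside in rat 1, rat 2 and rat 3, against 39.5%, 37.0% and 41.3% of all rows, so the share among these genes was near that of other abundant rows. The bounds were not used as errors for this reason.

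Gabarapl1, the mitophagy receptors Bnip3, Bnip3l and Bcl2l13, and the endoplasmic reticulum receptor Fam134b were all noticed after their values were seen. Each was lowest in rat 3, at 0.341 to 0.667 times the highest rat. Of all symbols at a mean of 1 FPKM or more, 28.9% were lowest in rat 3, whatever their spread. The share of symbols both lowest there and this far below the highest rat was not taken. Foxo1 was also lowest there, at 12.3 FPKM against 17.6 in rat 1. Ctsb and Vamp8 were highest there, as were Phb2 and Tomm7 of the same receptor list. These values describe 1 library and have no test.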
